A study of Mus musculus with 10 samples.

Results

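The 50 genes described here encode proteins that copy DNA in S phase and that separate chromosomes in G2 and mitosis, and they are the usual RNA marks of dividing cells. They were picked by name and function, with earlier results of these data known but by no threshold on measured values, from the 27179 genes of the deposited count table, by Entrez gene ID paired with the mouse symbol. All 50 were in the table, and all 50 passed the filter on low counts that left 15681 genes for testing.

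Mammary glands of female C57BL/6 mice, adult and virgin, gave 5 sorted cell populations, each sequenced as RNA in 2 biological replicates. The macrophages were ductal macrophages and stromal macrophages, and the dendritic cells were CD11b-CD103+ cells (CD103+ below), CD11b-CD103- cells (CD103- below) and CD11b+ cells, named after the integrin chains CD11b and CD103. The labels name no treatment, transgene, batch or sorting gate and no number of mice behind a library, so p-values measure the spread between 2 replicates a population. That spread was estimated over all 5 populations together, so each p-value also carries the spread of populations outside its comparison. Total counts ran from 5636092 to 23093742, with the ductal libraries and CD11b+ replicate 2 the shallowest. Levels are CPM, counts per 1e6 of the composition-adjusted total of tested genes, on which 3 counts are worth 0.119 to 0.683 CPM, and pairs of values are replicates 1 and 2.

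The labelled cell types were checked against marker genes. Adgre1, the F4/80 antigen of macrophages, stood at 1045 and 828 CPM in the ductal and 386 and 231 CPM in the stromal libraries, against 1.49 to 5.07 CPM in the CD11b- dendritic cells and 331 and 253 CPM in the CD11b+ cells. The 10 macrophage markers summed to 25516 and 25174 CPM in ductal, 9992 and 7367 in stromal and 4608 and 4376 in CD11b+ libraries. Cd14 was the highest gene of the CD11b+ sum, at 2998 and 2738 CPM against 894 and 763 CPM in stromal libraries. The 7 markers of CD11b+ dendritic cells summed to 2780 and 2176 CPM in those cells. They summed to 1858 and 1371 CPM in stromal, 942 and 701 in ductal and 37.3 to 99.4 in CD11b- libraries. Flt3, a receptor of dendritic cells, stood at 314 to 520 CPM in the CD11b- cells but at only 16.8 and 18.1 CPM in the CD11b+ cells, and Itgae, the gene for CD103, at 158 and 172 CPM in CD103+ cells against 9.39 and 3.80 CPM in CD103- cells. Other genes of the 8-gene dendritic cell list did not follow the labels: Itgax, which encodes CD11c, was highest in the ductal libraries (847 and 610 CPM against 77.6 to 162 CPM in dendritic cells), as was the class II gene H2-Ab1. Kmo stood at 80.6 and 79.3 CPM in stromal libraries against 20.7 and 12.6 CPM in CD11b+ cells. Transcripts of the mitochondrial genome made up 24.8% and 23.1% of counts in the stromal libraries and 0.631% to 6.29% in the others. Both CD103- replicates held RNA of 6 of 6 B cell markers. The summed level was 301 CPM in replicate 2 and 39.8 CPM in replicate 1, against 5.99 to 19.7 CPM elsewhere, and Pax5 was at 0 in all libraries other than the CD103- pair. Counts of called members, or the median difference over members, are given below also without a stromal or CD103- replicate where it enters the comparison.

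A cell that commits to division first licenses its DNA: Cdc6 and Cdt1 load the Mcm2 to Mcm7 helicase onto origins, which Cdc45 and the GINS complex then activate, while ribonucleotide reductase and thymidylate enzymes supply nucleotides. Transcription factors of the E2F family drive many of these genes at the entry into S phase. Later the MuvB complex, with B-Myb and FoxM1, drives the cyclins, kinases and spindle proteins of G2 and mitosis, often through a promoter element called CHR beside CCAAT boxes. Dendritic cells arise from dividing precursors, and both dendritic cells and resident macrophages can divide in tissues.

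The letters of these elements can be seen in the members' promoters, so 5 are printed, each as the 150 bases before the RefSeq start site on the gene's own strand (RefSeq, GRCm38.p6). They are what is left of 18 candidates with a CHR or E2F match within those 150 bases. Left out were 13 windows that overlap an annotated exon or the gene itself. Their order is that of the number of comparisons in which the gene was called. Capitals mark matches, on either strand, to the CHR letters TTTGAA, to the CCAAT box and to E2F letters. The E2F letters searched were TTCCCGC, then as variants TTGGCGC, further also TTCGCGC and lastly the form TTGCCGC.
Kif11: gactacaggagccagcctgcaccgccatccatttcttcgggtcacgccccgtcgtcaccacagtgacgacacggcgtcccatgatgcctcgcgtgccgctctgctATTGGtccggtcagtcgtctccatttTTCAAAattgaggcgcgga
Hmgb2: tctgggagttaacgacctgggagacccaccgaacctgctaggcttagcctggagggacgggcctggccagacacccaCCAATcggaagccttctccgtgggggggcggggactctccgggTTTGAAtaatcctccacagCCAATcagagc
Rrm1: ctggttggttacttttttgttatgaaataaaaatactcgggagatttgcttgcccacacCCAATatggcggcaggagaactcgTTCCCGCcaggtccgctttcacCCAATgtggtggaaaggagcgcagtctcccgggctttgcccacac
Mcm2: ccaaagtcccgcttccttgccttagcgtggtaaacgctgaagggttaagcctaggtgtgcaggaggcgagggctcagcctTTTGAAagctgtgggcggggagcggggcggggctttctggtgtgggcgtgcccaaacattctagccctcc
Mcm6: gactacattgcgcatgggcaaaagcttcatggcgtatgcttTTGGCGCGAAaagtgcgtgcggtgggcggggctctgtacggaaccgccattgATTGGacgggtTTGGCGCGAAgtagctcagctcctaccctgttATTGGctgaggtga
The windows are chr19:37376232-37376381 (plus strand) for Kif11, a spindle motor, and chr8:57511693-57511842 (plus strand) for Hmgb2, a chromatin protein. Those of the replication genes are chr7:102441545-102441694 (plus strand) for Rrm1, chr6:88898781-88898930 (minus strand) for Mcm2 and chr1:128359706-128359855 (minus strand) for Mcm6. The CHR match lay 19 bases before the start in Kif11, 30 in Hmgb2 and 70 in Mcm2, and the E2F match lay 67 bases before it in Rrm1. In Mcm6, matches on the 2 strands overlapped at both sites, so that 4 matches mark 2 places.

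Among the 41 members found in the promoter table, with 44 promoters of 250 bases before to 50 after the start, TTTGAA was present in 47.7% of promoters, against 12.7% of those of tested genes and 17.9% of all 32851 promoters. The CHR match was held by 7 of 9 genes of mitotic kinases, the spindle checkpoint and the anaphase-promoting complex, and by 5 of 7 of the kinetochore, spindle and cytokinesis group. It was held by 2 of 8 licensing genes and by 0 of 6 genes of nucleotide supply and the replication fork. The E2F motifs were split the other way, with matches in 6 of 8 licensing genes and 3 of 6 of nucleotide supply, but in 0 of 9 and 0 of 7 of the 2 mitotic groups, and in 36.4% of all member promoters against 15.5% for tested genes and 9.57% for the table. CCAAT stood in 79.5% of member promoters against 37.4% for tested genes and 37.4% for the table, and the variant TTTAAA in 27.3% against 9.52% and 13.2%. Each of the 21 member promoters with TTTGAA also held CCAAT, a pair present in 5.02% of promoters of tested genes. These matches describe letters in a window and no binding was measured.

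Summed over the 50 genes, RNA was highest in the dendritic cells and lowest in the stromal macrophages. The sum was 529 and 745 CPM in the stromal libraries and 1179 and 1169 CPM in the ductal libraries. It was 2128 and 2437 CPM in CD103+ cells, 2672 and 2977 CPM in CD11b+ cells and 3008 and 3952 CPM in CD103- cells. No macrophage library reached the lowest dendritic cell library, both ductal libraries lay above both stromal ones, and within the dendritic cells CD103+ replicates lay lowest, while the CD11b+ and CD103- pairs did not overlap but differed by less than the spread between the CD103- replicates. In bulk RNA, fewer dividing cells and less of these RNAs in each dividing cell cannot be told apart. By population mean, 36 of the 50 genes were highest in CD103- cells, 13 in CD11b+ cells and 1, Cdt1, in ductal macrophages, and 43 were lowest in stromal macrophages, 6 in ductal macrophages and 1, E2f1, in CD103+ cells.

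**Figure D1:**
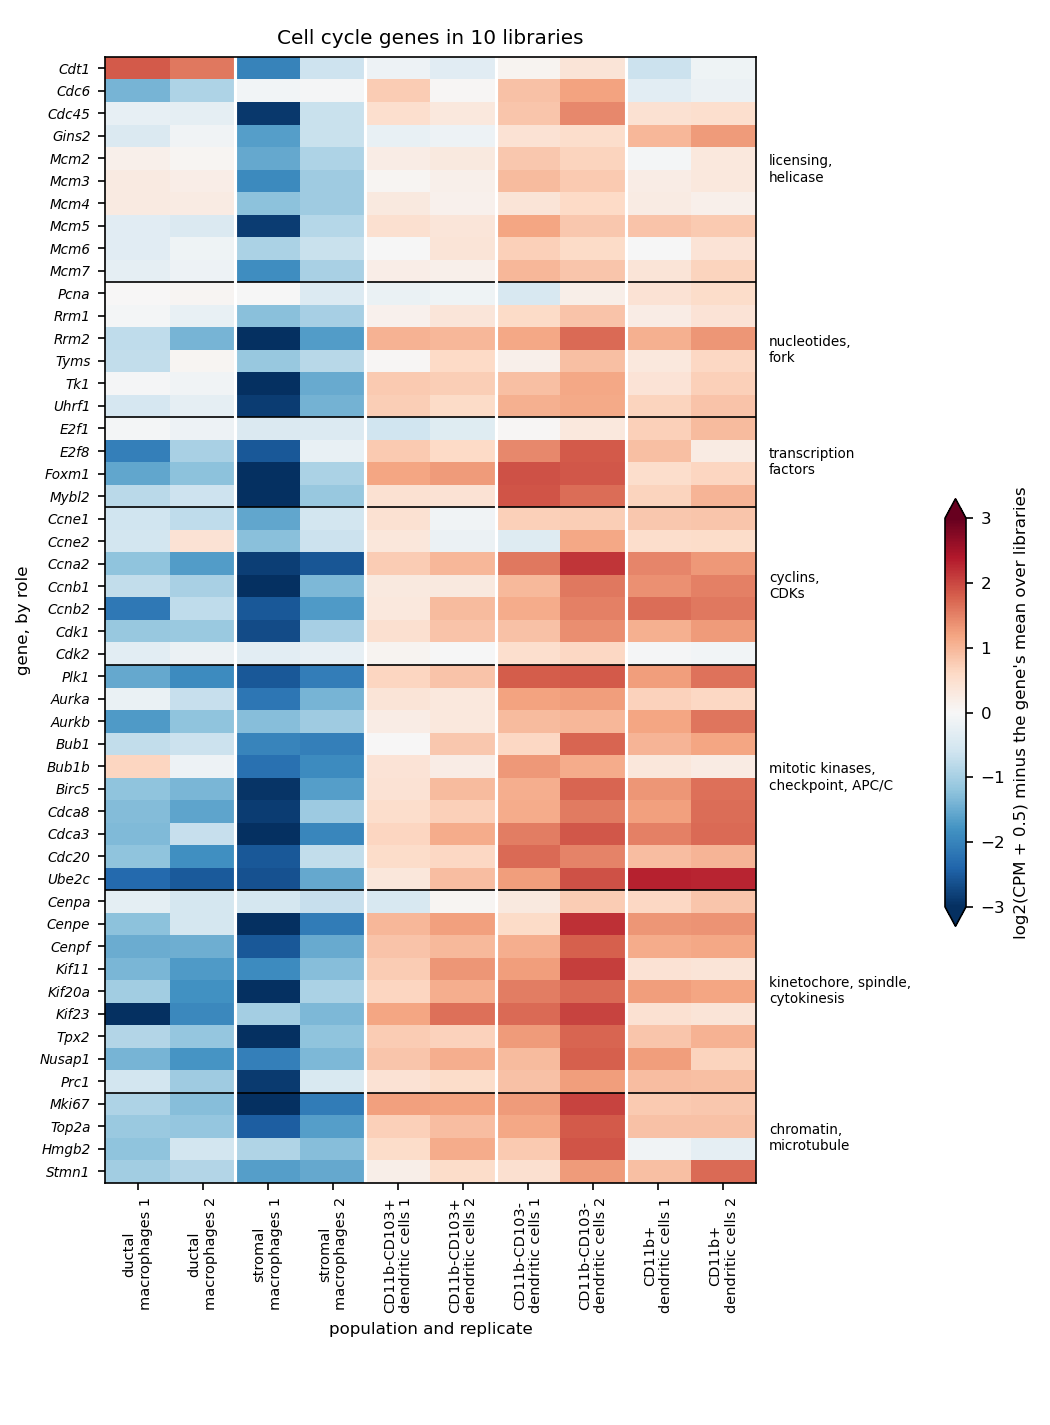
Heat map of the 50 genes (rows, grouped by role) in the 10 libraries (columns); colour gives log2(CPM + 0.5) minus the gene's mean over libraries, from blue (low) to red (high), with values beyond 3 in either direction drawn at the end of the scale. The stromal columns are blue for most genes, the ductal columns are pale for licensing genes and blue for mitotic genes, and Cdt1 is the 1 gene highest in the ductal columns.

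Scaled by transcript length, the most abundant member in both macrophage populations was Pcna, the sliding clamp of DNA polymerases, at 68.4 CPM per kb in ductal and 58.0 CPM per kb in stromal macrophages. In the dendritic cells the most abundant was Stmn1, which destabilises microtubules, at 91.1 CPM per kb in CD103+, 134 CPM per kb in CD103- and 179 CPM per kb in CD11b+ cells. The median member stood at 4.59 CPM per kb in ductal and 2.41 CPM per kb in stromal macrophages, against 13.0, 20.0 and 13.6 CPM per kb in CD103+, CD103- and CD11b+ cells.

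Of the usual marks of division, Mki67, the Ki-67 antigen of proliferating nuclei, stood at 35.8 and 28.2 CPM in ductal, 7.95 and 15.8 CPM in stromal, 162 and 160 CPM in CD103+, 167 and 279 CPM in CD103- and 119 and 120 CPM in CD11b+ libraries. Top2a, the topoisomerase that untangles replicated chromosomes, stood at 37.6 and 36.7 CPM in ductal, 14.3 and 25.9 CPM in stromal, 134 and 156 CPM in CD103+, 184 and 294 CPM in CD103- and 150 and 152 CPM in CD11b+ libraries. Both genes thus fell into the same order, stromal below ductal below every dendritic cell library, with no overlap between those levels.
Ccna2, cyclin A2 of S phase and G2, stood at 12.8 and 9.08 CPM in ductal, 3.81 and 4.68 CPM in stromal, 50.9 and 60.4 CPM in CD103+, 90.3 and 134 CPM in CD103- and 83.7 and 74.3 CPM in CD11b+ libraries. Ccnb1, cyclin B1 of mitosis, stood at 6.15 and 5.11 CPM in ductal, 0.883 and 3.87 CPM in stromal, 13.2 and 13.1 CPM in CD103+, 21.4 and 32.8 CPM in CD103- and 28.2 and 31.2 CPM in CD11b+ libraries. Cdk1, the kinase that both cyclins activate, stood at 9.57 and 9.65 CPM in ductal, 2.93 and 10.5 CPM in stromal, 30.1 and 39.3 CPM in CD103+, 39.8 and 57.7 CPM in CD103- and 45.9 and 53.3 CPM in CD11b+ libraries. For Cdk1 the stromal replicates enclosed the ductal ones, and for all 3 genes the macrophage libraries lay below every dendritic cell library.
Rrm2, the inducible subunit of ribonucleotide reductase, stood at 15.3 and 9.65 CPM in ductal, 1.99 and 7.97 CPM in stromal, 54.6 and 52.8 CPM in CD103+, 59.1 and 86.3 CPM in CD103- and 55.9 and 67.0 CPM in CD11b+ libraries. Mcm2, a subunit of the replicative helicase, stood at 44.9 and 42.0 CPM in ductal, 13.5 and 21.1 CPM in stromal, 47.1 and 49.7 CPM in CD103+, 70.8 and 64.5 CPM in CD103- and 38.9 and 50.6 CPM in CD11b+ libraries. Pcna stood at 84.5 and 88.0 CPM in ductal, 83.2 and 62.9 CPM in stromal, 73.4 and 77.1 CPM in CD103+, 60.00 and 95.4 CPM in CD103- and 113 and 123 CPM in CD11b+ libraries. Rrm2 kept the order of Mki67, whereas ductal Mcm2 lay within the range of the dendritic cells and Pcna of all but the CD11b+ libraries lay between 60.00 and 95.4 CPM, with both CD11b+ libraries above that range.

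**Figure D2:**
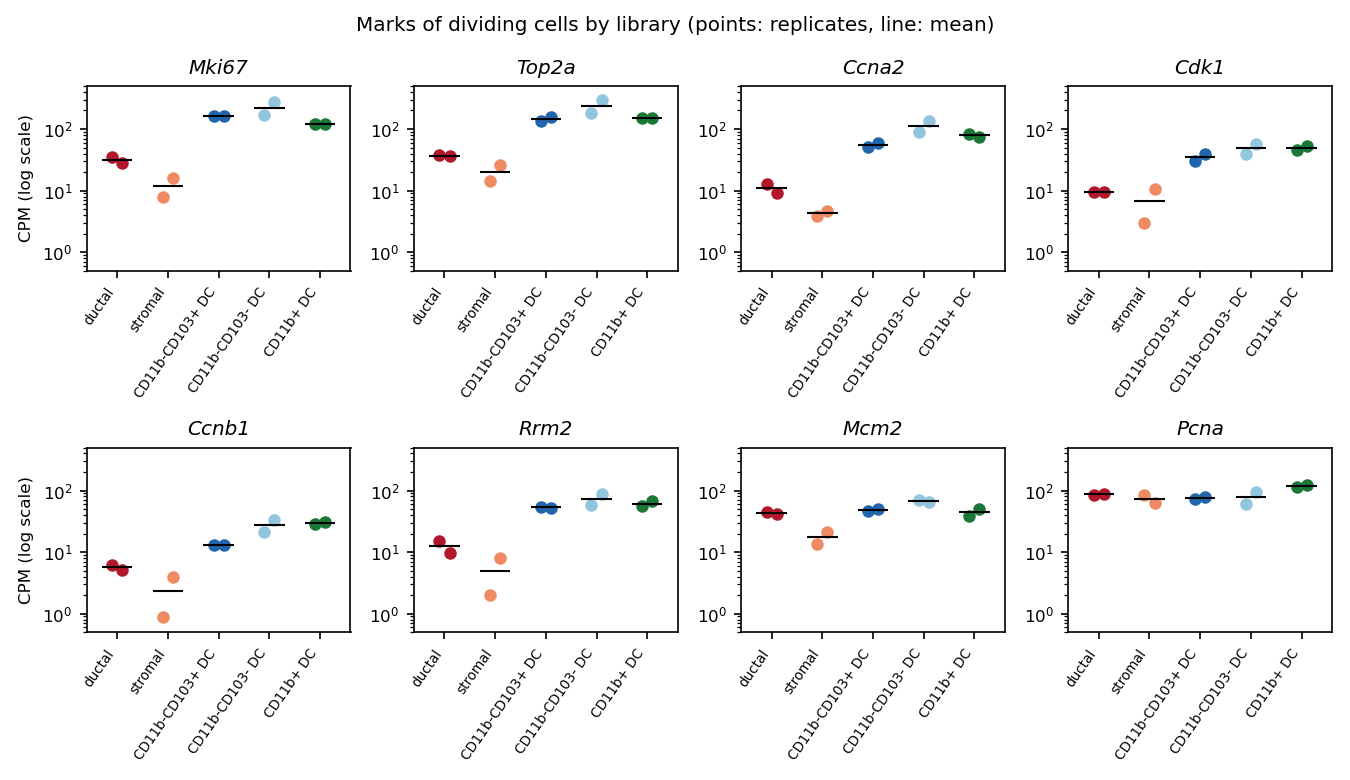
Levels of 8 marks of dividing cells in each library, as CPM on a log axis; points are the replicates and lines the mean of each population. Macrophage points lie below all dendritic cell points for Mki67, Top2a, Ccna2, Cdk1, Ccnb1 and Rrm2, while ductal Mcm2 and Pcna lie among them.

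Ductal macrophages held less RNA than dendritic cells for nearly all G2 and mitosis genes, while fewer of the replication genes passed the test. Against the mean of the 3 dendritic cell populations, 34 members were lower and 1 higher at an adjusted p under 0.05 (edgeR quasi-likelihood test, adjusted over all tested genes), where 26.6% of all tested genes were called, 11.6% lower and 15.0% higher. The median log2 difference was -1.77, or 3.42-fold lower, against -0.09 over all tested genes, and 39 members were lower in both ductal libraries than in any of the 6 dendritic cell libraries (16.6% of all genes), and 1 was higher (17.3%). Called lower were 9 of 9 kinetochore, spindle and cytokinesis genes (median log2 difference -2.65), 9 of 10 mitotic kinase, checkpoint and anaphase-promoting complex genes (-2.50), 4 of 4 chromatin and microtubule genes (-2.04) and 5 of 7 cyclins and kinases (-1.97). Of the 4 transcription factors, 2 were called lower (-2.28), and of 6 genes of nucleotide supply and the fork 3 were (-0.82). Of the 10 licensing and helicase genes, 2 were called lower, Cdc6 and Mcm7, and 1, Cdt1, higher (-0.67). The Mcm7 call (log2 -0.76) was lost on leaving out any 1 of the ductal or dendritic cell libraries (-0.70 to -0.82), and that of Cdc6 (-1.68) without ductal replicate 1 (-1.44).

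The largest ductal deficit was that of Ube2c, the ubiquitin-conjugating enzyme of the anaphase-promoting complex, at 5.70 and 4.92 CPM in ductal libraries against 38.5 and 57.9 CPM in CD103+, 73.1 and 115 CPM in CD103- and 153 and 149 CPM in CD11b+ libraries. Its ductal level was 16.7-fold lower (log2 -4.06 ± 0.41 SE, edgeR adjusted p = 3.05e-05). Kif23, a kinesin of cytokinesis, stood at 3.19 and 7.57 CPM in ductal libraries and at 39.7 to 125 CPM in dendritic cells, 13.2-fold lower (log2 -3.73 ± 0.35, adjusted p = 1.77e-05). For both genes, ductal and dendritic cell libraries did not overlap.
Plk1, the kinase that drives entry into mitosis, was 10.6-fold lower, at 1.82 and 1.32 CPM against 10.004 to 23.5 CPM (log2 -3.40 ± 0.39, adjusted p = 7.23e-05). Ccna2 was 7.26-fold lower (log2 -2.86 ± 0.27, adjusted p = 1.80e-05). Kif20a, Nusap1 and Cenpf, which act in cytokinesis, on spindle microtubules and at the kinetochore, were lower by log2 -2.80 ± 0.72, -2.79 ± 0.37 and -2.75 ± 0.36, and Foxm1, the transcription factor of mitotic genes, by -2.73 ± 0.66 (adjusted p 0.000208 to 0.0146). Among the other marks, Mki67 differed by log2 -2.35 ± 0.32, Rrm2 by -2.32 ± 0.46, Top2a by -2.22 ± 0.29, Cdk1 by -2.19 ± 0.44 and Ccnb1 by -1.97 ± 0.48 (adjusted p 0.0002 to 0.0111).
Mcm2 and Pcna did not pass the test, with log2 differences of -0.28 ± 0.22 (adjusted p = 0.383) and -0.03 ± 0.21 (0.931). Bub1b, a spindle checkpoint kinase, was the 1 gene of the mitotic kinase group that did not pass (log2 -0.32 ± 0.24, adjusted p = 0.368), at 37.1 and 21.4 CPM in ductal libraries against 28.0 to 58.9 CPM in dendritic cells. Cdt1 (chr8:122568015-122573130, GRCm38), which loads the helicase and is kept in check by geminin, went the other way, at 85.2 and 71.9 CPM in ductal libraries against 15.0 to 31.0 CPM in dendritic cells and 5.46 and 15.2 CPM in stromal macrophages. It was 3.64-fold higher than in dendritic cells (log2 1.86 ± 0.30, adjusted p = 0.000867), and both ductal libraries lay above all 8 others. Without CD103- replicate 2, the library with the most B cell RNA, the median log2 over members was -1.66. Without ductal replicate 1 the count of lower members was 16, and Ccnb1 (log2 -2.10), Cdk1 (-2.18), Foxm1 (-2.57) and Kif20a (-3.30) kept their sign and missed the threshold. Without ductal replicate 2 it was 18, and Ccnb1 (-1.84), Foxm1 (-2.93), Kif20a (-2.41) and Rrm2 (-2.03) did so. Without composition scaling, all genes shifted by a median log2 of -0.58, 26.1% of all calls were higher in place of 56.4%, and members were called 43 lower and 1 higher.

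Stromal macrophages lay below the dendritic cells for nearly every member. In that comparison 47 members were lower and 0 higher (edgeR adjusted p under 0.05), where 38.4% of all tested genes were called, 18.2% lower and 20.3% higher. The median log2 difference was -2.62, or 6.13-fold lower, against 0.03 over all tested genes. All 50 members had a negative difference, 48 of them at an unadjusted p under 0.05, where 7478 of the 15681 tested genes were. DESeq2 called 48 members lower and 0 higher. The stromal libraries lay below all 6 dendritic cell libraries for 46 members (18.2% of all genes). The 3 that did not pass were Cdc6 (log2 -0.50), Pcna (-0.27 ± 0.21, adjusted p = 0.335) and Cdk2 (-0.46). The medians were -3.04 for the 10 mitotic kinase, checkpoint and anaphase-promoting complex genes, -2.89 for the 9 kinetochore, spindle and cytokinesis genes, -2.81 for the chromatin and microtubule genes, -2.71 for cyclins and kinases and -2.64 for transcription factors, against -2.22 for nucleotide supply and the fork and -1.62 for licensing.

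Cdca3, which helps to trigger entry into mitosis, stood at 0.276 and 3.75 CPM in stromal libraries against 25.5 to 60.2 CPM in dendritic cells, the largest difference (21.6-fold lower, log2 -4.43 ± 0.69, edgeR adjusted p = 0.000554). Cenpe, a kinetochore motor, was 19.5-fold lower (1.10 and 4.62 CPM against 32.2 to 101 CPM, log2 -4.29 ± 0.62, adjusted p = 0.000348). In both genes stromal replicate 2 was the higher of the pair and still below every dendritic cell library.
Plk1 was 18.7-fold lower and Ccna2 18.6-fold lower (log2 -4.23 ± 0.38 and -4.22 ± 0.29, adjusted p 1.15e-05 and 1.83e-06). Mki67 was 13.7-fold lower (log2 -3.78 ± 0.34, adjusted p = 1.40e-05) and Rrm2 12.5-fold lower (-3.64 ± 0.49, 0.000201). Ube2c differed by -3.58 ± 0.38, Birc5, the survivin subunit of the chromosomal passenger complex, by -3.49 ± 0.41, Ccnb1 by -3.21 ± 0.50, Top2a by -3.11 ± 0.31, Cdk1 by -2.71 ± 0.44 and Mcm2 by -1.60 ± 0.23 (adjusted p 2.32e-05 to 0.000728). These 12 genes were lower in both stromal libraries than in any dendritic cell library.
Within the stromal pair, 45 of the 50 members were higher in replicate 2, by a median of 1.81-fold, where 44.1% of all tested genes were higher. Summed epithelial markers also differed between those replicates, at 1019 and 2544 CPM for the 10 genes, all of them detected in both, against 229 to 1592 CPM in the other populations; their part in the member levels was not tested. Leaving out stromal replicate 1 gave 43 members lower with a median log2 of -2.35, and leaving out replicate 2 gave 45 with a median of -3.46. Leaving out mitochondrial genes, which took a high share of the stromal counts, gave 46 members lower. Without CD103- replicate 2, the library with the most B cell RNA, the median log2 over members was -2.56. Without composition scaling, all genes shifted by a median of -0.34, 31.4% of all calls were higher in place of 52.7%, and 49 members were lower.

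Ductal macrophages held more RNA than stromal macrophages for a part of the members, with the highest group medians for licensing and for nucleotide supply. In the ductal cells 14 members were called higher and 1 called lower (edgeR adjusted p under 0.05), or 28.0% and 2.0% of the 50. Together that is 30.0% called, close to the 30.6% of all tested genes. Of all tested genes 16.3% were higher and 14.3% lower. The median log2 difference was 0.85 against -0.10 over all tested genes. Called higher were 5 of 10 licensing genes (median 1.21), 3 of 6 of nucleotide supply and the fork (1.15), 3 of 10 mitotic kinase and checkpoint genes (0.87), 1 of 7 cyclins and kinases (0.83), 1 of 4 chromatin and microtubule genes (0.77), 1 of 9 kinetochore and spindle genes (0.38) and 0 of 4 transcription factors (0.37; 0 at an unadjusted p under 0.05). An unadjusted p under 0.05 was held by 6573 of the 15681 tested genes. Both ductal libraries lay above both stromal ones for 32 members and below for 2, where this held for 30.6% and 34.6% of all genes.

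Cdt1 led, at 7.61-fold higher (log2 2.93 ± 0.43, edgeR adjusted p = 0.000502). Bub1b followed at 5.45-fold, with 37.1 and 21.4 CPM in ductal against 4.64 and 6.06 CPM in stromal libraries (2.45 ± 0.31, adjusted p = 0.000204). Tk1, thymidine kinase of the nucleotide salvage pathway, was 4.40-fold higher, at 18.7 and 17.8 CPM against 1.88 and 6.41 CPM (2.14 ± 0.45, adjusted p = 0.00505). All 3 had no overlap between the pairs.
Cenpe differed by 2.06 ± 0.65, Mcm3, a helicase subunit, by 1.69 ± 0.27, Uhrf1, which maintains DNA methylation behind the fork, by 1.66 ± 0.40, Aurka, a kinase of the spindle pole, by 1.48 ± 0.40 and Bub1, a checkpoint kinase, by 1.45 ± 0.43 (adjusted p 0.00102 to 0.0336). Of the marks, Mki67 (1.43 ± 0.35, adjusted p = 0.0105), Ccna2 (1.36 ± 0.30, 0.00629) and Mcm2 (1.32 ± 0.27, 0.00361) passed the test. Rrm2 (1.32 ± 0.52, 0.076), Ccnb1 (1.24 ± 0.56, 0.116), Top2a (0.88 ± 0.32, 0.0558), Cdk1 (0.52 ± 0.49, 0.451) and Pcna (0.24 ± 0.26, 0.513) did not. With the replicate number as a block, Top2a passed the test too, at log2 0.93.
The 1 member called lower was Kif23, at 3.19 and 7.57 CPM in ductal against 14.8 and 11.6 CPM in stromal libraries (log2 -1.27 ± 0.37, adjusted p = 0.0232), while Kif11, another spindle motor, differed by 0.01 ± 0.36 (adjusted p = 0.993).
The counts moved with single libraries: 8 members were higher without ductal replicate 1, and 30 without stromal replicate 2. Without ductal replicate 1, Aurka (log2 1.18), Bub1 (1.495), Ccna2 (1.10), Cenpe (2.37), Kif23 (-0.80) and Mki67 (1.25) missed the threshold. Without ductal replicate 2, Bub1 (1.39), Cenpe (1.64) and Uhrf1 (1.54) did. Without stromal replicate 1, Aurka (1.11), Bub1 (1.52), Cenpe (1.40) and Kif23 (-1.04) did, Cdk1 turned to -0.09, and 0 members were called lower. Without stromal replicate 2, Bub1 (1.41) missed it. Cenpe missed it also without CD11b+ replicate 1 (2.06) or 2 (2.04). Over all 50 members the median log2 was 0.85 with all libraries, 0.49 without stromal replicate 1 and 1.51 without stromal replicate 2. Negative differences numbered 6, 14 and 3 in that order.

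**Figure D3:**
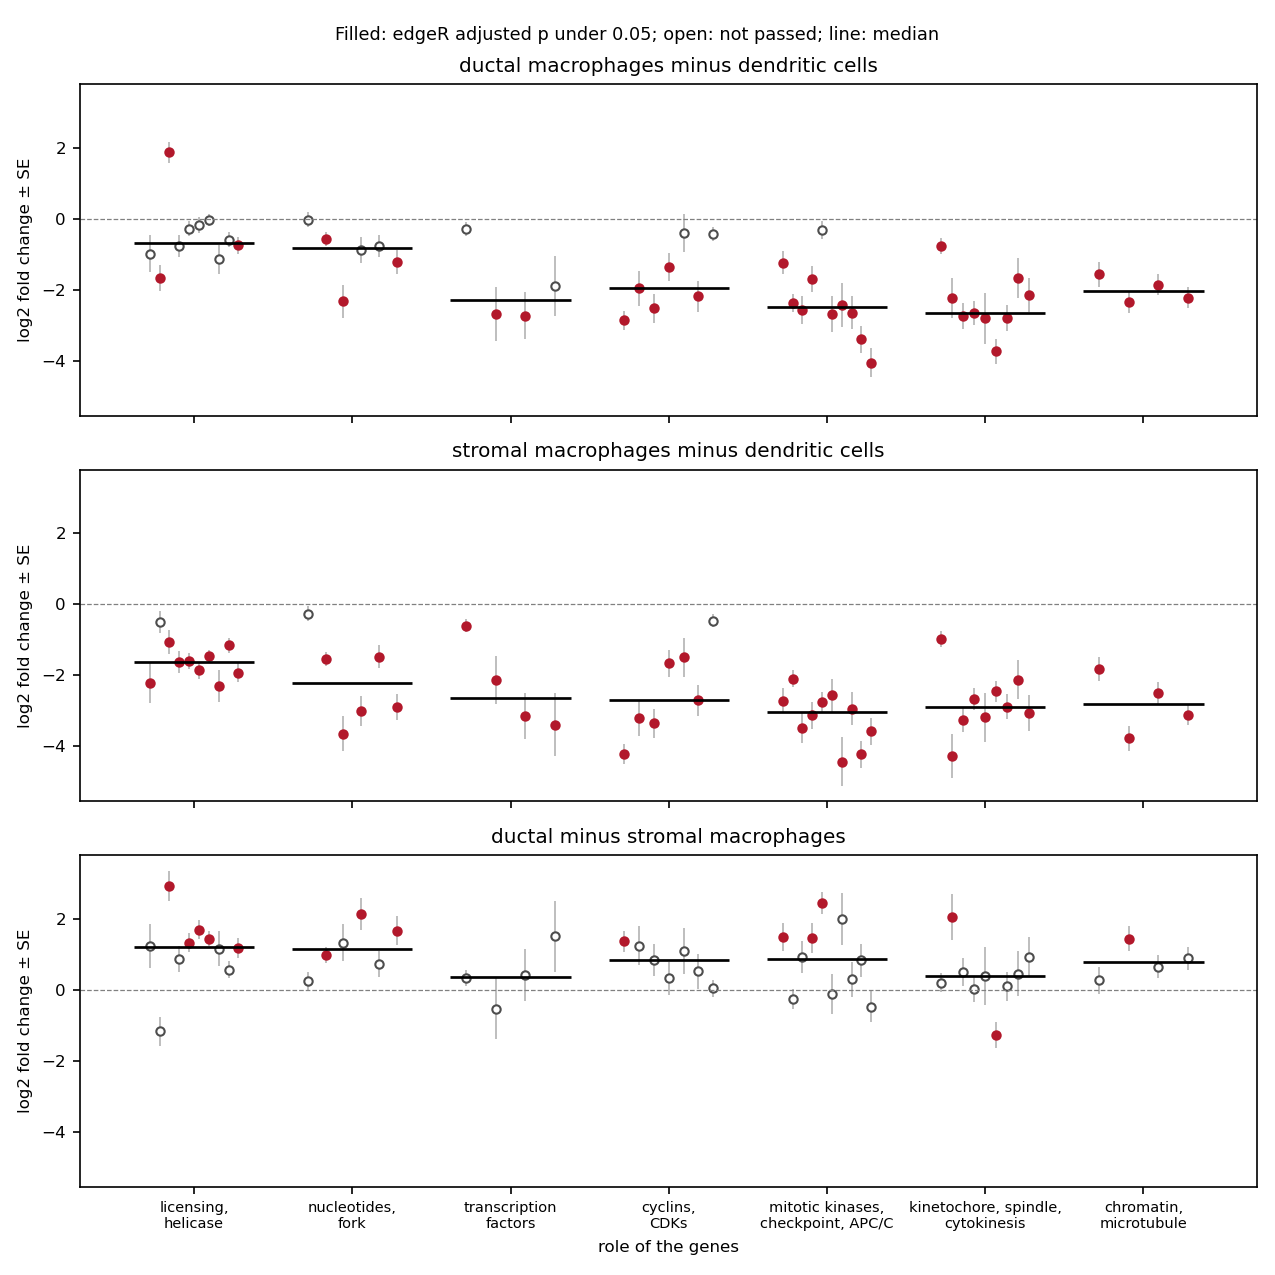
Log2 fold changes (points) with their SE (bars) of the 50 genes by role group, for ductal macrophages and stromal macrophages against dendritic cells and for ductal against stromal macrophages; filled points passed the edgeR test and black lines are group medians. In the top panel licensing genes have a median of -0.67 and kinetochore and spindle genes one of -2.65, while in the middle panel all group medians lie at -1.62 or lower.

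The balance of early to late RNA can be read within each library, where any scaling between libraries cancels. The summed CPM of the 10 licensing and helicase genes, divided by that of the 19 genes of both mitotic groups, was 2.37 and 2.67 in ductal, 1.44 and 1.49 in stromal, 0.849 and 0.690 in CD103+, 0.872 and 0.573 in CD103- and 0.605 and 0.637 in CD11b+ libraries. Ductal libraries had the highest ratios, stromal libraries came next, and all dendritic cell libraries lay below 1. With the helicase subunits Mcm2 to Mcm7 alone on top, the order was the same, at 1.86 and 2.14 in ductal, 1.26 and 1.26 in stromal and 0.494 to 0.784 in dendritic cell libraries. The licensing sum itself was 499 and 495 CPM in ductal macrophages, close below the 513 and 529 CPM of CD103+ cells, while the mitotic sum was 210 and 185 CPM against 604 and 766 CPM. The ratio was not tested.

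**Figure D4:**
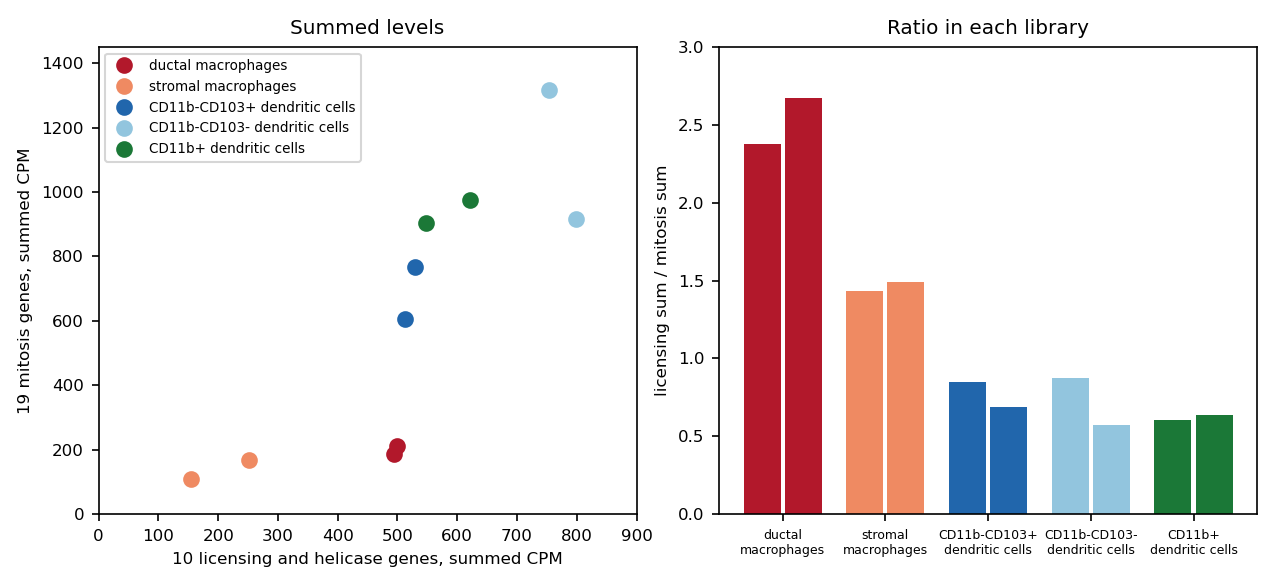
Left, summed CPM of 19 mitosis genes against that of 10 licensing and helicase genes, 1 point per library; right, their ratio in each library, 1 bar per replicate. The ductal libraries have licensing sums of 499 and 495 CPM, near those of CD103+ cells, and the highest ratios, at 2.37 and 2.67.

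Between the CD11b- dendritic cell populations no member passed the test. CD103+ cells had 0 members higher and 0 lower than CD103- cells by edgeR, where 0.0319% of all tested genes were called, 5 in all. An unadjusted p under 0.05 was held by 13 of the 50 members and by 1000 of the 15681 tested genes. DESeq2 called 0 members as well. All 50 members had a negative difference, with a median of log2 -0.65, against 51.5% of all tested genes and a median of -0.02. In 41 members both CD103+ libraries lay below both CD103- libraries (18.3% of all genes), and in 0 above (17.4%). Members are not independent of each other, and the common sign was not tested.
Of the marks, Ccna2 differed by -1.01 ± 0.26 (adjusted p = 0.325), Ccnb1 by -1.04 ± 0.49 (0.783), Top2a by -0.72 ± 0.30 (0.765), Cdk1 by -0.49 ± 0.44 (0.916), Mcm2 by -0.48 ± 0.26 (0.851), Mki67 by -0.47 ± 0.33 (0.904), Rrm2 by -0.44 ± 0.46 (0.927) and Pcna by -0.05 ± 0.26 (0.993). The widest difference was that of Mybl2, which encodes B-Myb, at 7.78 and 7.72 CPM in CD103+ and 22.0 and 18.8 CPM in CD103- libraries (-1.39 ± 0.85, adjusted p = 0.879).
CD103- replicate 2, the library with the most B cell RNA (Ms4a1 at 90.8 CPM, Cd79a at 62.6 CPM), was higher than replicate 1 for 41 of 50 members, by a median of 1.28-fold, where 48.9% of all tested genes were higher. Without it 44 members kept a negative difference, with a median of -0.46, and Pcna stood at 0.33. Other marker sums differed between replicates too. Epithelial markers summed to 1011 and 451 CPM in CD103- and 1581 and 784 CPM in CD103+ libraries. Endothelial markers summed to 443 and 141 CPM and to 575 and 358 CPM, and monocyte markers to 474 and 801 CPM and to 305 and 385 CPM, in the same order. The part of the B cell RNA or of these other RNAs in the member levels was not tested. T cell markers summed to 53.6 to 106 CPM in these 4 libraries, mostly Cd8a, which CD11b- dendritic cells also express, at 45.2 to 92.4 CPM, with Cd3e at 0.437 to 1.58 CPM.

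CD11b+ dendritic cells differed from the mean of the CD11b- populations in few members and in both directions. There 4 members were higher and 4 lower (edgeR adjusted p under 0.05), where 25.1% of all tested genes were called, 14.0% of all tested genes were higher and 11.0% lower, with a median log2 of -0.04 against -0.07 over all genes. Libraries did not overlap for 7 members higher and 8 lower (23.8% and 25.3% of all genes).
Ube2c was 2.25-fold higher (log2 1.17 ± 0.30, adjusted p = 0.0164). Gins2, a subunit of the GINS complex, was 2.04-fold higher, at 30.0 and 36.4 CPM against 12.4 to 21.3 CPM (1.03 ± 0.29, adjusted p = 0.025). E2f1, which drives entry into S phase, was 1.99-fold higher, at 62.1 and 74.1 CPM against 24.8 to 47.2 CPM (0.99 ± 0.19, adjusted p = 0.00326), and Aurkb, the kinase of the chromosomal passenger complex, 1.73-fold higher, at 53.1 and 71.8 CPM against 27.4 to 46.6 CPM (0.79 ± 0.21, adjusted p = 0.0212). For these 4 genes both CD11b+ libraries lay above all 4 CD11b- libraries.
Hmgb2, a chromatin protein, was 2.56-fold lower, at 27.7 and 24.6 CPM against 43.9 to 112 CPM (-1.36 ± 0.34, adjusted p = 0.0156). Kif23 was 2.38-fold lower, at 41.6 and 39.7 CPM against 69.3 to 125 CPM (-1.25 ± 0.29, adjusted p = 0.0096). Cdc6, which loads the helicase with Cdt1, was 2.07-fold lower, at 6.33 and 7.001 CPM against 8.24 to 19.2 CPM (-1.05 ± 0.34, adjusted p = 0.0458), and Kif11 1.99-fold lower, at 48.4 and 46.9 CPM against 61.2 to 151 CPM (-0.99 ± 0.30, adjusted p = 0.0316). For these 4 genes both CD11b+ libraries lay below all 4 CD11b- libraries.
None of the marks passed: Mki67 differed by -0.67 ± 0.29 (adjusted p = 0.121), Ccnb1 by 0.65 ± 0.41 (0.284), Pcna by 0.62 ± 0.22 (0.0586), Mcm2 by -0.36 ± 0.23 (0.287), Top2a by -0.30 ± 0.27 (0.46), Cdk1 by 0.27 ± 0.38 (0.657), Rrm2 by -0.03 ± 0.40 (0.973) and Ccna2 by 0.003 ± 0.23 (0.998).
These 8 calls rest on the replicates and the scaling. Without composition scaling, which shifted all genes by a median of -0.46 and gave 29.4% of all calls higher in place of 56.0%, 1 member was higher and 7 lower. Without CD11b+ replicate 1, Gins2 (1.16), Ube2c (1.14), Hmgb2 (-1.45), Kif23 (-1.29), Kif11 (-1.02) and Cdc6 (-0.98) missed the threshold and 2 higher and 0 lower were left. Without CD11b+ replicate 2 all 8 did, with Ube2c at 1.197, Gins2 at 0.89, E2f1 at 0.87, Aurkb at 0.57, Hmgb2 at -1.27, Kif23 at -1.21, Cdc6 at -1.11 and Kif11 at -0.96, and the counts were 0 and 0. Without CD103+ replicate 1, Ube2c (1.03), Gins2 (0.999), Aurkb (0.77) and Cdc6 (-0.84) missed it, and without CD103- replicate 1, Ube2c (1.02), Gins2 (0.997), Aurkb (0.78) and Cdc6 (-1.14), each leaving 1 higher. Without CD103+ replicate 2, Gins2 (1.05) and Kif11 (-0.84) did, and without CD103- replicate 2, Cdc6 (-0.96) and Kif11 (-0.76). Cdc6 missed it also without ductal replicate 1 (-1.05) or 2 (-1.05) and with the replicate number as a block (-1.05). Over all 50 members the median log2 was -0.04 with all libraries and 0.02 without CD103- replicate 2. Negative differences numbered 29 and 24 in that order.

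**Figure D5:**
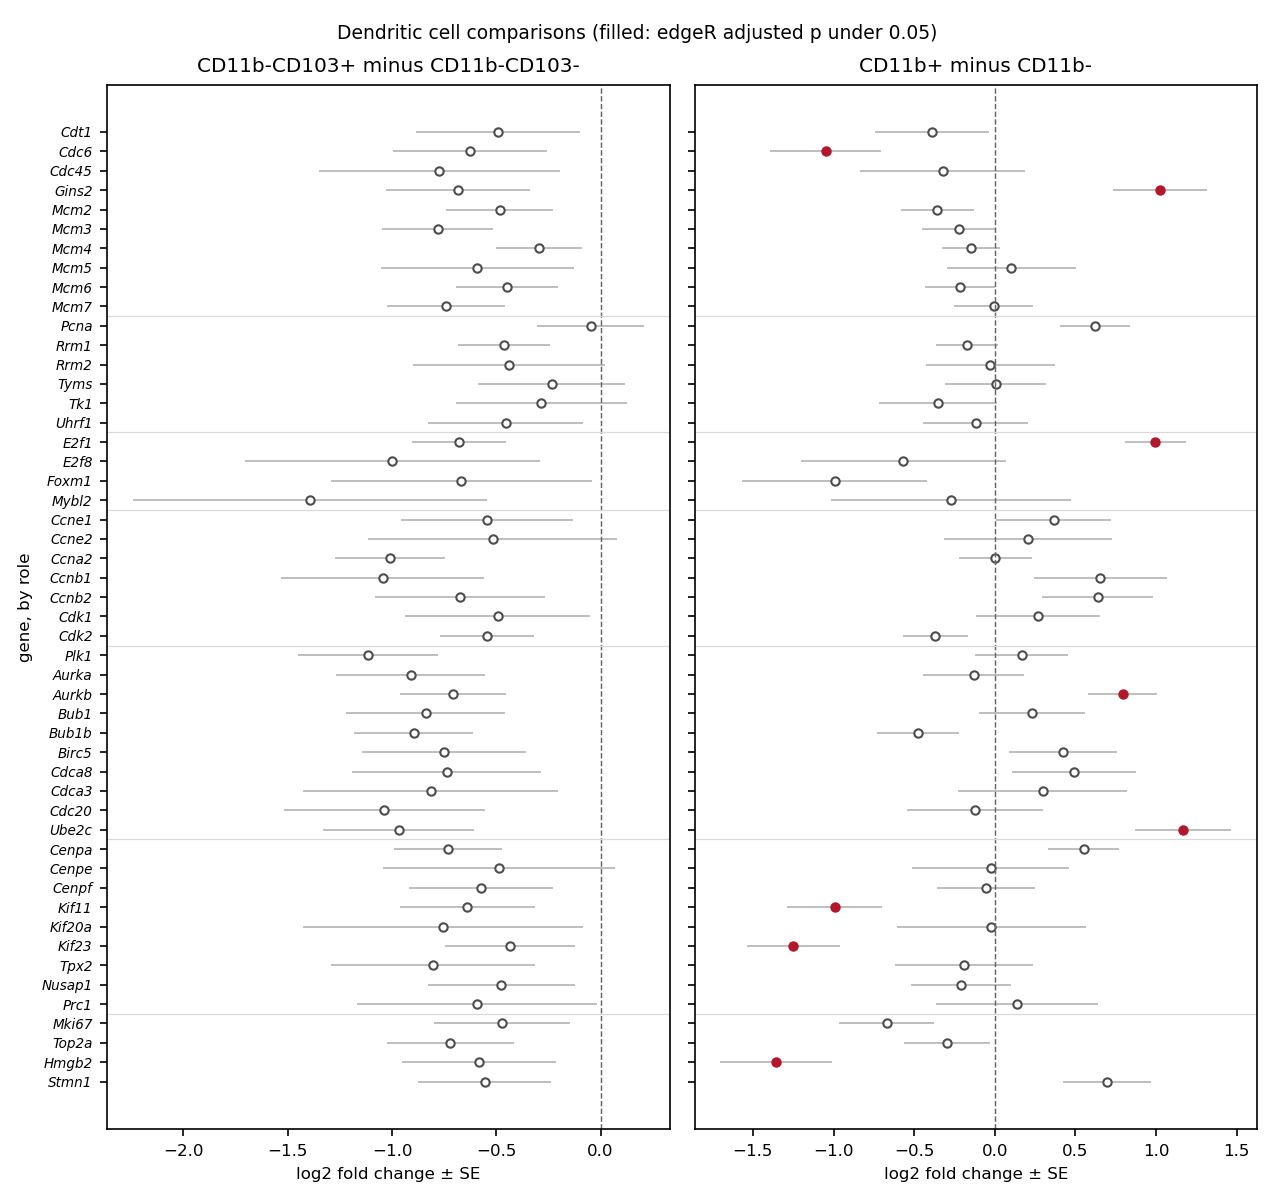
Log2 fold changes (points) with their SE (bars) of the 50 genes between dendritic cell populations, CD103+ minus CD103- on the left and CD11b+ minus CD11b- on the right; filled points passed the edgeR test. All points on the left lie below 0 and none is filled, and on the right 4 filled points lie on each side of 0.

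Other genes of the same processes, from lists of 30 S phase and 40 G2 and mitosis genes that hold none of the 50, were counted in the same comparisons. Those lists, and those of G1 entry and inhibitors below, were chosen with earlier results known. The comparisons with dendritic cells share the dendritic cell libraries, so their values stand side by side. In ductal macrophages 14 of 30 S phase genes were lower than in dendritic cells and 0 higher (median log2 -1.06; 24 at an unadjusted p under 0.05), and in stromal macrophages 23 were lower and 0 higher (-1.57; 27 at an unadjusted p under 0.05). Of the G2 and mitosis genes, 36 of 40 were lower and 1 higher in ductal macrophages (-2.24), and 37 were lower and 1 higher in stromal macrophages (-2.87). Of all 15681 tested genes 11.6% and 18.2% were lower, and 5945 and 7478 had an unadjusted p under 0.05. Leaving out 1 library gave 2 S phase and 23 G2 and mitosis genes lower in ductal macrophages without ductal replicate 1, and 6 S phase genes lower without ductal replicate 2, while the stromal counts ran from 19 to 26 and from 35 to 38 lower over all libraries left out. Aspm, a spindle pole protein, stood at 1.14 and 1.51 CPM in ductal libraries against 13.1 to 36.2 CPM in dendritic cells (log2 -3.84 ± 0.42, adjusted p = 5.17e-05). The 1 gene higher in ductal macrophages was Espl1, the separase that cleaves cohesin, at 58.8 and 41.1 CPM against 17.0 to 40.6 CPM (1.00 ± 0.23, adjusted p = 0.0087), a call lost without ductal replicate 1 (0.72). The 1 gene higher in stromal macrophages was Pttg1, the securin that holds separase inactive, at 58.5 and 61.3 CPM against 23.5 to 27.8 CPM (1.22 ± 0.18, adjusted p = 0.00047). Both of these were chosen after their values were seen, as the exceptions of their list. Cdc25c, the phosphatase that activates Cdk1, had no counts in stromal libraries, at least 73.1-fold lower than the dendritic cell mean of 6.19 CPM against a floor of 3 counts over the pair.

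Between the macrophages, ductal cells had 9 of 30 S phase genes higher and 1 lower (median log2 0.56), and 13 of 40 G2 and mitosis genes higher and 3 lower (0.76). Of the S phase list that is 33.3% called, where 30.6% of all tested genes were, 16.3% higher and 14.3% lower. Leaving out 1 library gave 3 to 10 S phase and 7 to 15 G2 and mitosis genes higher, with 5 and 7 without ductal replicate 1, 3 and 9 without ductal replicate 2 and 4 S phase genes without stromal replicate 1. CD11b+ against CD11b- dendritic cells gave 1 higher and 3 lower (-0.22) and 3 higher and 1 lower (-0.02) in the S phase and the G2 and mitosis list. The 4 calls of 30 genes (13.3%) and 4 of 40 lay below the 25.1% of all tested genes, and all 8 calls were lost without CD11b+ replicate 1. Over all libraries left out, the counts ran from 0 to 4 higher and 0 to 6 lower in the S phase list and from 0 to 5 higher and 0 to 6 lower in the other. CD103+ against CD103- cells gave 0 called in both, with medians of -0.54 and -0.67. In each list 8 genes had an unadjusted p under 0.05, as did 1000 of the 15681 tested genes.

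Genes that bring cells out of G1 gave calls in both directions in the ductal comparisons. They gave only lower calls in stromal macrophages against dendritic cells and in CD11b+ against CD11b- cells. The share called lay near that of all genes, other than between the macrophages (41.7% against 30.6%). Genes that hold cells in G1 gave calls in both directions in all these comparisons. Of 12 G1 entry genes, ductal macrophages had 2 higher and 2 lower against dendritic cells (median log2 0.16), and stromal macrophages had 0 higher and 4 lower (-0.79; 8 at an unadjusted p under 0.05). Both are 33.3% called, where 26.6% and 38.4% of all tested genes were. In the stromal comparison 7478 of the 15681 tested genes had an unadjusted p under 0.05. Of these calls, Skp2 (ductal, log2 1.41) was lost on leaving out either ductal, CD103+ or CD11b+ library or CD103- replicate 1 (1.24 to 1.54), which left 1 gene higher. Cdc25a (stromal, -0.84) was lost in 7 of the 10 such fits (-0.75 to -0.91), and 3 to 5 genes were lower. Ccnd3, cyclin D3, stood at 15.5 and 17.6 CPM in ductal libraries, 77.4 and 89.6 CPM in stromal libraries and 103.2 to 220 CPM in dendritic cells (ductal against dendritic cells log2 -3.27 ± 0.25, adjusted p = 4.31e-06). Its partner Cdk6 went the other way, at 32.4 and 45.8 CPM in ductal, 9.60 and 8.08 CPM in stromal and 6.12 to 22.3 CPM in dendritic cell libraries (1.45 ± 0.25, adjusted p = 0.0015). The ductal libraries were thus the lowest of all for Ccnd3 and the highest of all for Cdk6.
Of 19 tested inhibitors of cyclin-dependent kinases and genes of quiescence (Cdkn2a was too low to test), ductal macrophages had 1 higher and 7 lower against dendritic cells (median log2 -0.59), and stromal macrophages had 6 higher and 5 lower (0.25), or 42.1% and 57.9% called. Without ductal replicate 1 the ductal counts were 0 higher and 4 lower, and without stromal replicate 1 the stromal counts were 3 higher and 5 lower. Cdkn2d, the inhibitor p19 of the Cdk4 and Cdk6 kinases, stood at 5.70 and 5.49 CPM in ductal, 28.1 and 22.3 CPM in stromal and 40.9 to 87.5 CPM in dendritic cell libraries (ductal against dendritic cells -3.46 ± 0.24, adjusted p = 1.95e-06). Cdkn1c, the inhibitor p57, was highest in stromal libraries, at 92.5 and 44.8 CPM against 1.37 and 4.35 CPM in ductal and 4.67 to 11.6 CPM in dendritic cell libraries (stromal against dendritic cells 3.001 ± 0.31, adjusted p = 3.44e-05). Ductal against stromal macrophages gave 4 higher and 1 lower of 12 G1 entry genes and 2 higher and 6 lower of 19 inhibitors and quiescence genes (41.7% and 42.1% called against 30.6% of all genes; 0 and 4 of the latter without ductal replicate 1). The largest called differences of each list were those of E2f2, an E2F factor of S phase entry, at 32.1 and 17.6 CPM against 0 and 1.39 CPM (5.16 ± 0.87, adjusted p = 0.00123), and of Cdkn1c (-4.55 ± 0.52, adjusted p = 9.5e-05). CD11b+ against CD11b- dendritic cells gave 0 higher and 3 lower G1 entry genes (25.0% called against 25.1% of all genes) and 2 higher and 1 lower of the inhibitors (15.8%), with 1 lower in the first list and 1 higher and 0 lower in the other without CD11b+ replicate 1. The lowest was Mycl, a Myc family factor, at 1.65 and 3.41 CPM against 52.5 to 101 CPM (-5.03 ± 0.60, adjusted p = 0.000166). Among the inhibitors Cdkn1b, which encodes p27, was lower (-1.20 ± 0.32, adjusted p = 0.0184), a call lost without CD11b+ replicate 1 (-1.43) or 2 (-1.02). Cdkn1a, which encodes p21, was higher, at 730 and 755 CPM against 236 to 389 CPM (1.18 ± 0.24, adjusted p = 0.00456). CD103+ against CD103- cells gave 0 calls in both lists, with 1 and 3 genes at an unadjusted p under 0.05 (1000 of the 15681 tested genes).

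The sources used here give no strand setting for the counting. By the span from start to end, introns included, 19 members overlap another annotated gene. Among them are Gins2 (with Gse1) and Cdc45 (with Ufd1), Ccna2 (with Exosc9), Tk1 (with Afmid), E2f1 (with Necab3), Cdk2 (with Pmel) and Mcm7 (with Ap4m1 and the Mir106b cluster). Overlap of exons was not examined, so how many reads of such pairs could be confused is not known. Named pseudogene or related copies exist for 5 members, Pcna, Tyms, Ccnb1, Ccnb2 and Stmn1, whose counts are uncertain to that extent. Cdt1, Mki67, Ube2c and Kif23 have neither.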

How the data were processed

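The authors deposited whole-number counts of reads per gene for the 10 libraries, made with featureCounts on mm10 per the submitters' processing notes, from TruSeq RNA libraries read in 80-base pairs per the labels' protocols. No source used here gives the aligner, the annotation or the strand setting. All 10 per-library files equalled their columns of the series table. Entrez IDs were named from RefSeq (25275) or GENCODE (18), and 1886 unnamed genes held 0.387% to 2.32% of counts and stayed in the fit.

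Genes were kept by edgeR's filterByExpr (minimum count 10, minimum total 15). All 10 libraries were fitted together with edgeR 4.0.16 in R 4.3.3 (TMM scaling, factors 0.779 to 1.36; quasi-likelihood test; 5 residual degrees of freedom), and Benjamini-Hochberg adjustment ran over the 15681 tested genes. SE is the log2 difference divided by the square root of F. The test was tried on simulated counts with known changes of log2 2 or 3 in either direction. Of changes of log2 2 it recovered 69.1% in ductal against stromal macrophages and 65.9% in CD103+ against CD103- cells. Of changes of log2 3 it recovered 79.6% and 83.5%, with 12 and 7 false calls among all tested genes. Smaller changes were not simulated. The 50 members, the other gene lists and the rules were chosen with earlier results of these data known. Named in each comparison are up to 8 called members in each direction by size of change, 8 fixed marks of division and up to 4 called genes of each other list, with other members by role group. Alternatives were DESeq2 1.42.0, other scaling and filters, the compared populations alone, a replicate block, leaving out mitochondrial genes and leaving out each library.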

Additional observations from a re-analysis of the deposited data

How the results depend on the processing

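With 2 libraries a population, single libraries moved the counts of called members most, and the cause was not tested. Leaving out each library in turn gave 8 to 30 members higher and 0 to 1 lower in ductal against stromal macrophages, 16 to 40 lower and 1 higher in ductal macrophages against dendritic cells, 43 to 47 lower in stromal macrophages against dendritic cells, 0 to 6 higher and 0 to 6 lower in CD11b+ against CD11b- dendritic cells, and 0 between the CD11b- populations. The libraries left out included those outside each comparison, which share its spread. Fitting only the compared populations gave 8 higher and 0 lower in ductal against stromal macrophages, with fewer samples behind the spread. A minimum count of 50 gave 2 lower there. With only the compared populations, 41 members were called in ductal and 47 in stromal macrophages against dendritic cells, and 9 in the CD11b+ comparison. Between the CD11b- populations 0 were called, and 25 had an unadjusted p under 0.05, against 13 with all libraries. Without composition scaling the CD11b+ comparison gave 1 higher and 7 lower. DESeq2 gave 18 higher and 1 lower, 1 and 37, 0 and 48, 5 and 4, and 0 and 0 in the 5 comparisons in this order: ductal against stromal, ductal and stromal against dendritic cells, CD11b+ and CD103+.

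Differences near 0 changed sign. Between ductal and stromal macrophages Cdk1 ran from -0.0950 without stromal replicate 1 to 1.71 without stromal replicate 2. Pcna ran from -0.136 to 0.0880 in ductal macrophages against dendritic cells, and from -0.34 to 0.33 in CD103+ against CD103- cells, on leaving out 1 library. In the CD11b+ comparison Ccna2 was -0.00705 with DESeq2 size factors, -0.381 without composition scaling, -0.0126 without the filter, -0.0109 at a minimum count of 50, -0.00688 by DESeq2, -0.0127 with only the compared populations, -0.0568 without mitochondrial genes and -0.129 to 0.155 on leaving out 1 library. There Cdk1 was -0.107 without composition scaling, and Rrm2 ran from -0.156 to 0.120 on leaving out 1 library.

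Over 10 pairs of populations the correlation of same-numbered deviations ran from -0.176 to 0.177, with 4 above 0.1. Those were the pairs among ductal, stromal and CD11b+ populations (0.102 to 0.126) and the pair of CD103+ and CD103- cells (0.177). The pairs across these sets were all negative (-0.176 to -0.124). Whether same-numbered samples belong together was not tested, and these values cannot settle it, since the labels name no batch. With the replicate number as a block the counts were 16 higher and 1 lower, 1 and 33, 0 and 47, 5 and 3, and 0 and 0 in the same order. Among the members named, only the calls of Top2a (ductal against stromal macrophages, 0.93, called) and Cdc6 (CD11b+ comparison, -1.05, no longer called) changed.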
